A study of Mus musculus with 12 samples.

Results

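The kinase pair STK39 and OXSR1, the WNK kinases above them and the ion transporters of airway and alveolar epithelium were followed through 10 genes: Stk39, Oxsr1, Wnk1, Wnk2, Wnk4, Slc12a2, Scnn1a, Scnn1b, Scnn1g and Cftr. They were the rows of both deposited count tables whose Ensembl identifiers carry these symbols in GENCODE M21. All 10 were present in both tables, among 56262 identifiers for lung tissue and 54532 for sorted cells, and all 10 passed the filter on low counts in each. The genes were chosen with their levels in tumour, adjacent lung and sorted cells already known, so the tumour comparison is given for them as a description, with no test.

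All mice were C57BL/6. Lung tumours and adjacent normal lung came from the same 3 animals, mice 102, 217 and 224, which carried a Med23 knockout in T cells and were 18 months old. AT2 cells, the alveolar type 2 cells that make surfactant, were isolated by fluorescence-activated sorting at 6 months of age from 3 WT mice (176, 177 and 190) and from 3 mice with the Med23 knockout in T cells (175, 179 and 191). The tumours arose spontaneously, per the design text, and the labels name neither the promoter that drove the deletion nor how the AT2 gate was set. No wild-type lung tissue was analysed here, so both lung groups share the knockout and the tumour comparison says nothing of genotype. The 12 libraries therefore form 4 groups of 3 separate animals each, with tumour and adjacent lung paired within an animal.

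Each lung library held 65163100 to 77951014 counts, and an AT2 library 15943084 to 18913242. Med23 lay between 18.3 and 36.8 CPM (a gene's counts relative to library size, with TMM factors) in lung and between 34.4 and 46.5 CPM in AT2 cells, which checks no label, since the deletion is in T cells. Some libraries stood apart from the rest. In lung, the first principal component (52.9% of the variance) parted tumour from adjacent lung and the second (21.3%) parted both libraries of mouse 217 from the other 4. In AT2 cells the first component (45.6%) set wild-type mouse 177 apart from the other 5, and the second (19.9%) wild-type mouse 176. Long genes read lower in these libraries, by the Spearman correlation between a gene's deviation from its mean and its exon length. That correlation was -0.25 and -0.22 in tumour and adjacent lung of mouse 217, -0.22 in mouse 177 and -0.17 in mouse 176. The other libraries had 0.0573 to 0.31. This trend bears on values per kilobase and on the long gene Wnk1, and its part in them was not tested. The log2 fold changes of the 10 genes are therefore also given without both libraries of mouse 217, and without mouse 177 or mouse 176. Adjacent lung had more RNA of other cell types than tumour did: summed over the marker lists, ciliated markers were at 425 to 754 CPM in adjacent lung against 9.04 to 30.3 in tumour (6 of 7 lower at an adjusted p under 0.05, edgeR), club markers at 17838 to 37001 against 2070 to 3019 (3 of 5 lower), AT1 markers at 2068 to 2912 against 832 to 1672 (3 of 7 lower) and endothelial markers at 1805 to 3317 against 347 to 412 (5 of 6 lower). Summed epithelial markers went the other way, at 2291 to 2426 CPM in tumour against 1023 to 1161 in adjacent lung (2 of 5 higher). Within that list Cdh1 and Krt19 overlapped, and the mean of Krt19 was lower in tumour (173 against 252 CPM). AT2 markers also summed higher, at 72617 to 223334 against 21326 to 41383 (2 of 9 higher, and 6 with the mouse as a block). Most of that sum was the surfactant gene Sftpc (mean 92251 CPM in tumour and 20156 in adjacent lung, adjusted p = 0.131, edgeR). Etv5, Napsa and Lpcat1 overlapped between the tissues. None of the 4 fibroblast, 6 macrophage or 5 T cell markers passed, but with the block 2 fibroblast markers and 1 T cell marker were lower. Of all 19995 genes tested in lung, 7.18% were called lower and 2.86% higher, and 9.34% and 5.57% with the block. The sorted cells held AT2 RNA, with Sftpc (surfactant protein C) at 69685 to 103247 CPM. Endothelial markers summed to 3.04 to 10.6 CPM there, fibroblast markers to 0.220 to 0.759, T cell markers to 0.172 to 1.87, macrophage markers to 19.2 to 37.3 and ciliated markers to 46.6 to 75.1. Other epithelial lists were not near 0 in the sorted cells: club markers summed to 3658 to 4795 CPM, most of it Cbr2 (3627 ± 139 in knockout and 3842 ± 608 in wild type), and AT1 markers to 1500 to 1809.

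WNK kinases are regulated by intracellular chloride and osmotic stress. When active they phosphorylate STK39 (also called SPAK) and its close relative OXSR1 (OSR1), and these in turn phosphorylate the cation-chloride cotransporters, switching on sodium-driven chloride uptake through SLC12A2 (NKCC1) and switching off potassium-driven chloride exit. In lung epithelium, chloride that enters through NKCC1 on the basolateral side can leave through apical chloride channels such as CFTR, while the epithelial sodium channel ENaC, built from the subunits encoded by Scnn1a, Scnn1b and Scnn1g, absorbs sodium from the airway and alveolar fluid. The balance of these routes sets how much liquid covers the epithelium, and loss of CFTR function causes cystic fibrosis.

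Set against adjacent lung, tumour libraries had more RNA of Stk39, Wnk2, Wnk4 and the chloride-entry gene Slc12a2, and less of the ENaC beta and gamma subunits and of Cftr. Stk39 differed most among the genes that were higher, 12.4-fold, followed by Slc12a2 at 4.97-fold and Wnk4 at 4.26-fold. Cftr differed most among those that were lower, 25.5-fold, followed by Scnn1g at 5.22-fold and Scnn1b at 2.48-fold. Of the 10 genes, 4 (Stk39, Wnk2, Wnk4 and Slc12a2) were higher in every tumour library than in every adjacent library, 3 (Scnn1b, Scnn1g and Cftr) were lower in every one, and 3 (Oxsr1, Wnk1 and Scnn1a) overlapped. Over the 19995 genes tested, 11.6% were higher without overlap and 18.9% lower without overlap, 30.5% in all, and the genes were chosen on this contrast, so nothing is read from the count. The median log2 fold change was -0.26 over the 10 genes and 0.04 over all genes tested. In bulk tissue, fewer cells of a type and less RNA per cell cannot be told apart, and this holds for every tumour value below.

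**Figure D1:**
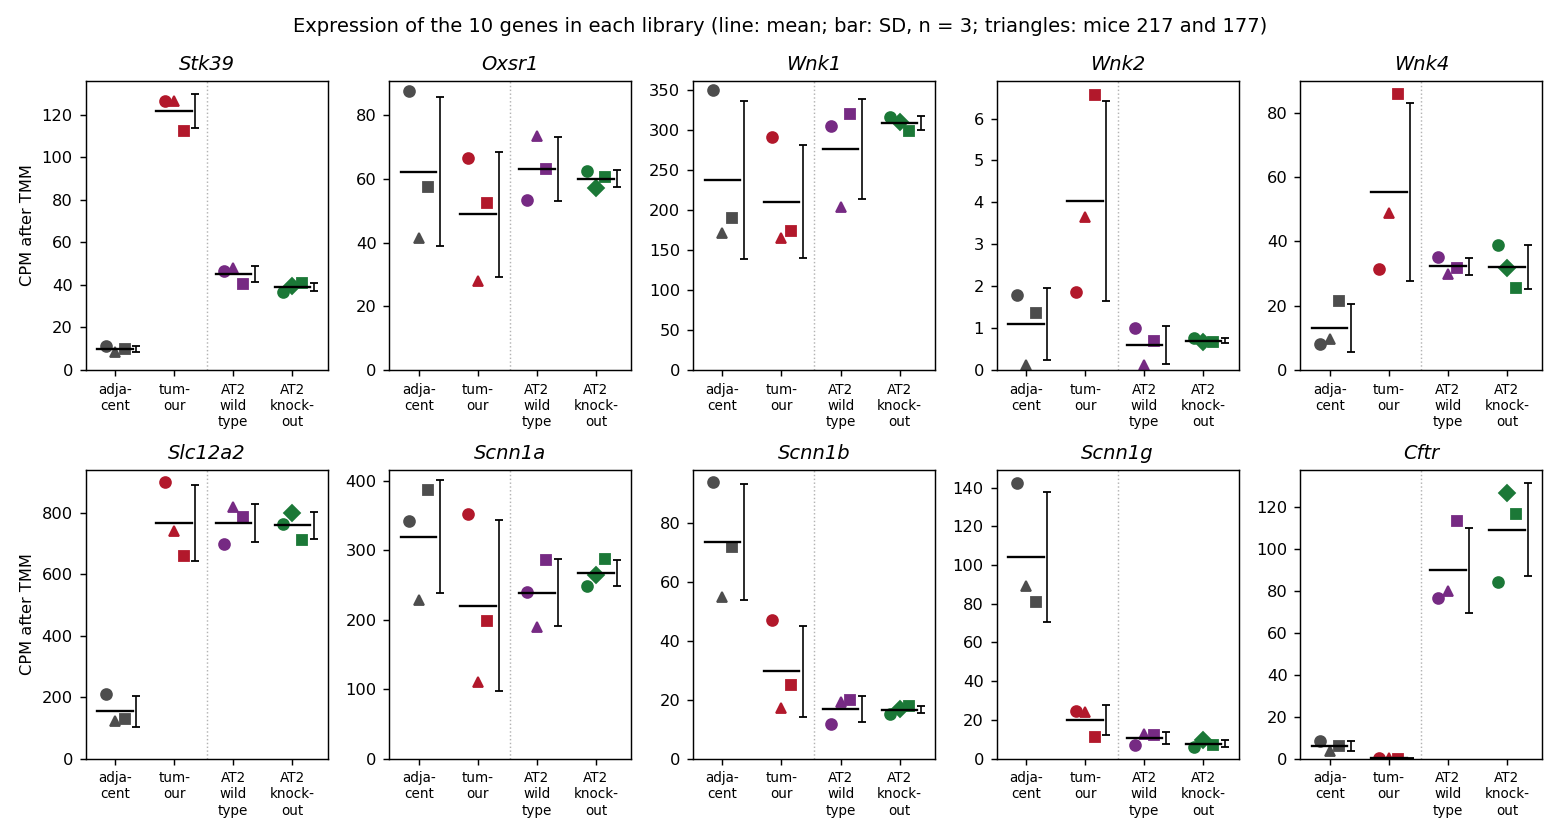
Level of each of the 10 genes in every library, in CPM after TMM scaling, with 1 panel per gene; points are libraries, the horizontal line is the group mean and the bar to its right the SD (n = 3), triangles mark mice 217 and 177, and the dotted line parts the 2 separately normalised tables. Stk39 sits at 112 to 126 in tumour and at 8.20 to 11.2 in adjacent lung, and Cftr is near 0 in tumour while AT2 libraries lie between 76.4 and 127.

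Stk39 (ENSMUSG00000027030, GRCm38 chromosome 2, 68210445 to 68472268, minus strand) encodes the kinase that acts directly on the cotransporters. Its level was 126, 126 and 112 CPM in the tumours of mice 102, 217 and 224, and 11.2, 8.20 and 10.04 CPM in their adjacent lung. Every tumour library lay far above every adjacent one, and the libraries of each group lay close together (122 ± 8.04 against 9.83 ± 1.53 CPM, SD, n = 3). Fitted over the 6 libraries, the log2 fold change was 3.63 ± 0.30 (SE), and within the animals it was 3.49, 3.94 and 3.48. Without both libraries of mouse 217 it was 3.43. Scaled to the summed epithelial markers, which were themselves higher in tumour, it was 2.49. The part that the amount of epithelium plays in the values of Stk39 and of the other genes was not tested.

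Oxsr1 (ENSMUSG00000036737, chromosome 9, 119238432 to 119322427, minus strand), the relative of Stk39 with the same WNK inputs, was at 66.5, 27.9 and 52.3 CPM in tumour against 87.8, 41.6 and 57.4 CPM in adjacent lung. The groups overlapped, mouse 217 was lowest in both tissues, and the log2 fold change was -0.35 ± 0.43 (-0.35 without mouse 217 as well). The make-up of the pair therefore differed between the tissues. Per kilobase of exon, Stk39 made up 67.2%, 83.03% and 69.9% of the Stk39 and Oxsr1 total in the 3 tumours (73.4% ± 8.46) and 12.1%, 17.6% and 15.9% in adjacent lung (15.2% ± 2.77). AT2 cells lay between, at 41.2% ± 1.996 in knockout and 43.5% ± 4.21 in wild type, with the caution that AT2 counts come from another table and were not tested against lung.

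Of the WNK kinases, Wnk1 (ENSMUSG00000045962, chromosome 6, 119923969 to 120038672, minus strand) is the widely expressed form. It was at 292, 165 and 174 CPM in tumour against 351, 171 and 190 CPM in adjacent lung. The groups overlapped, with mouse 102 highest in both tissues. Its log2 fold change was -0.17 ± 0.41 (-0.27 without mouse 217), and its sign turned to 0.24 when the adjacent library of mouse 102 was left out.

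Wnk4 (ENSMUSG00000035112, chromosome 11, 101260567 to 101277409, plus strand) is the form best known from salt-transporting epithelia and from a familial hypertension with high potassium. It was at 31.4, 49.0 and 85.9 CPM in tumour against 7.98, 9.53 and 21.6 CPM in adjacent lung. Mouse 224 was highest in both tissues, and its adjacent lung came closest to the tumours without reaching them. The differences within the animals were 1.97, 2.36 and 1.99 on the log2 scale, closer to each other than the levels were. The fit over all libraries gave 2.09 ± 0.53, with 1.91 without mouse 217 and 0.96 when scaled to the epithelial markers. As a share of the summed WNK level per kilobase, Wnk4 was 36.8%, 60.7% and 71.1% in tumour and 10.99%, 23.4% and 38.0% in adjacent lung, so that the lowest tumour lay just below the highest adjacent library. The exon length used for Wnk1 counts all of its annotated exons, which understates the level of Wnk1 per kilobase and so raises the share of Wnk4 in all groups. Of the genes that overlap Wnk4, Oxsr1 and Wnk1, the antisense gene Gm11615, Slc22a14 and the pseudogene Gm16199 stayed at or under 1.297 CPM in every library.

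Wnk2 (ENSMUSG00000037989, chromosome 13, 49036303 to 49148014, minus strand) was scarce. It was at 1.86, 3.66 and 6.57 CPM in tumour against 1.78, 0.120 and 1.37 CPM in adjacent lung, where the library of mouse 217 had 9 counts. Tumour was higher in every library, but mouse 102 barely differed (0.06 on the log2 scale, against 4.64 and 2.24 in mice 217 and 224). On the log2 scale the fit gave 1.89 ± 0.95, with 1.36 without both libraries of mouse 217 and 0.72 when scaled to the epithelial markers.

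Slc12a2 (ENSMUSG00000024597, chromosome 18, 57878678 to 57946821, plus strand), the sodium-potassium-chloride cotransporter that loads epithelial cells with chloride, had the highest mean level per kilobase of the 10 genes in tumour. Its level was 901, 740 and 659 CPM in tumour and 211, 122 and 129 CPM in adjacent lung. The groups were far apart, and mouse 102 was highest in both tissues. The log2 fold change was 2.31 ± 0.37, with 2.09, 2.60 and 2.35 within mice 102, 217 and 224. It was 2.14 without mouse 217 and 1.16 when scaled to the epithelial markers.

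**Figure D2:**
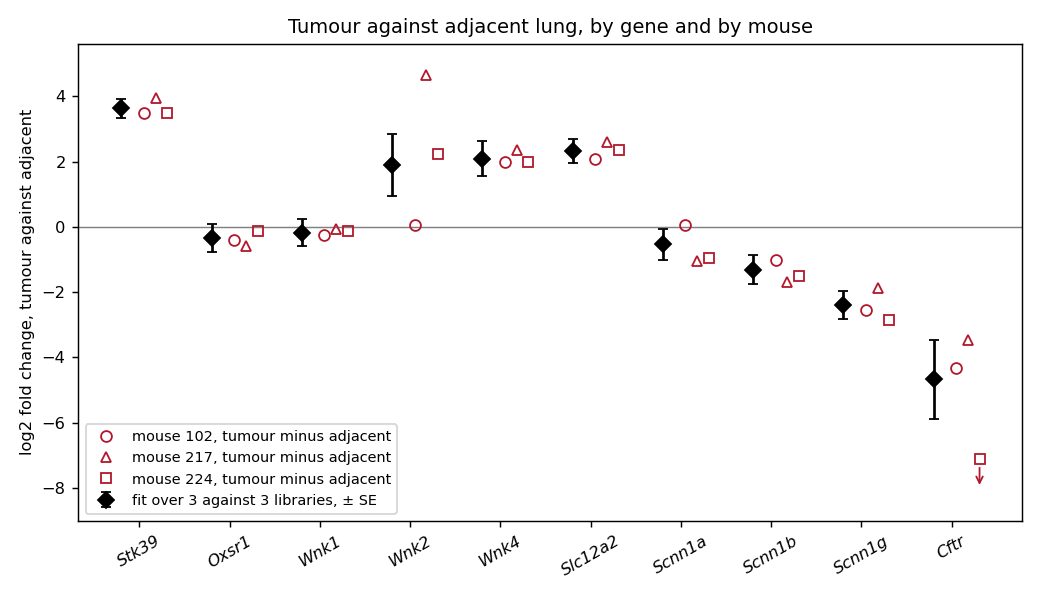
Log2 fold change of tumour against adjacent lung for each gene (vertical axis); black diamonds are the fit over 3 against 3 libraries with its SE, and open symbols are the difference within each mouse, with an arrow where the tumour library had 0 counts and the value is a bound. The 3 mice lie close together for Stk39, Wnk4 and Slc12a2, and apart for Wnk2 (0.06 to 4.64).

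The 3 ENaC subunits did not differ alike. Scnn1a (ENSMUSG00000030340, chromosome 6, 125320659 to 125344943, plus strand) encodes the alpha subunit, without which the channel does not conduct. It was at 352, 110 and 198 CPM in tumour against 342, 229 and 387 CPM in adjacent lung. The groups overlapped and the animals differed, with 0.04 on the log2 scale in mouse 102 against -1.05 and -0.97 in mice 217 and 224. The fitted log2 value was -0.54 ± 0.47, and -0.47 without mouse 217.

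Scnn1b (ENSMUSG00000030873, chromosome 7, 121865038 to 121918514, plus strand) encodes the beta subunit, whose overexpression in mouse airways gives a disease like cystic fibrosis. It was at 47.0, 17.1 and 25.1 CPM in tumour against 94.1, 55.0 and 71.9 CPM in adjacent lung. The groups did not overlap, and the order of the animals was the same in both tissues. The log2 fold change was -1.31 ± 0.44, and -1.26 without mouse 217. Scnn1b overlaps Cog7 on the other strand, and without strand the reads of the overlap cannot be told apart. Cog7 was at 42.7 ± 13.02 CPM in tumour and 31.4 ± 8.96 CPM in adjacent lung. In AT2 cells Cog7 was at 55.2 CPM in knockout and 60.5 in wild type, above Scnn1b (16.6 and 17.0). The part of shared reads in the levels and shares of Scnn1b was not tested.

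Scnn1g (ENSMUSG00000000216, chromosome 7, 121734479 to 121768475, plus strand) encodes the gamma subunit, which proteases cut to open the channel. Its level was 24.5, 24.3 and 11.1 CPM in tumour and 142, 89.3 and 80.9 CPM in adjacent lung. Every tumour library lay far below every adjacent one. The log2 fold change was -2.38 ± 0.43, with -2.54, -1.88 and -2.87 within mice 102, 217 and 224, and -2.70 without mouse 217.

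Scnn1g and Scnn1b are neighbours on the same strand, 96.6 kb apart. Both windows of 250 bases before the start are shown because these neighbours were lower in tumour together; those of Cftr and Wnk4 follow as the promoters of the gene that was lowest in tumour and of a gene that was higher. The sequences are RefSeq's for GRCm38.p6, plus strand, at chr7:121734229-121734478 (Scnn1g), chr7:121864788-121865037 (Scnn1b), chr6:18170437-18170686 (Cftr) and chr11:101260317-101260566 (Wnk4). Capitals mark matches on either strand to the GC box GGGCGG and to the E-box in the form CACNTG. Other forms of the E-box were not searched. None of the 4 windows held a CCAAT box, searched by those letters, a TATA box (searched as TATAAA) or an AP-1 site (searched as TGANTCA), all on both strands.
Scnn1g: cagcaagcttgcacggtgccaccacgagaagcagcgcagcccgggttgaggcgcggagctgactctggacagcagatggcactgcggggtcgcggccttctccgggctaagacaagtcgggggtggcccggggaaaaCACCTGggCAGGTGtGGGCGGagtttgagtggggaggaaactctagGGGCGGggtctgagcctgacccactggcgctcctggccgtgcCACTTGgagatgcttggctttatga
Scnn1b: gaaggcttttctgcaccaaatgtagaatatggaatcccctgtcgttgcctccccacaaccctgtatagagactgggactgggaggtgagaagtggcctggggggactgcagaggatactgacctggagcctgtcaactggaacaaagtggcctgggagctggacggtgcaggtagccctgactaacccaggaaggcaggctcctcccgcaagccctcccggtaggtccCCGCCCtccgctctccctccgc
Cftr: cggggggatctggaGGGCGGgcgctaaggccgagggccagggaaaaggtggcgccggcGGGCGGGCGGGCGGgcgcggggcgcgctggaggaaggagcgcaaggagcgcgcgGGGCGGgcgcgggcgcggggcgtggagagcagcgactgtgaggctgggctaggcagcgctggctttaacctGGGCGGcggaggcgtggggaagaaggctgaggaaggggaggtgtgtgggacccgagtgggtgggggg
Wnk4: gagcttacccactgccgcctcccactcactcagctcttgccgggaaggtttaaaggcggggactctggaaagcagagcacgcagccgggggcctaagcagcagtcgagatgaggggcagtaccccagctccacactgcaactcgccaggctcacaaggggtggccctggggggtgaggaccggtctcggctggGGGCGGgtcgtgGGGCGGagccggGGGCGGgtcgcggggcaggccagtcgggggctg

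The Scnn1g window held 2 GC boxes, 3 E-boxes of the form searched and 16 CG pairs. That of its neighbour Scnn1b held 1 GC box, no E-box of that form and 7 CG pairs. The Cftr window held 6 GC boxes, 3 of them overlapping one another, with 30 CG pairs, and the Wnk4 window held 3 GC boxes and 17 CG pairs. Among 32851 RefSeq promoters of the same length, 32.7% held a GC box and 39.5% an E-box of that form. The median number of CG pairs was 6, with quartiles of 2 and 16. The neighbours thus differ in their start regions, and the letters describe the windows only.

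Per kilobase, the alpha subunit made up 76.6%, 64.6% and 78.3% of the ENaC total in the tumours of mice 102, 217 and 224, and 49.8%, 52.2% and 63.2% in adjacent lung. All tumour shares lay above all adjacent ones, the closest pair being 64.6% and 63.2%. The gamma share was 11.03% ± 7.51 in tumour and 25.03% ± 5.84 in adjacent lung, where mouse 217 had the highest tumour value (19.7%) and mouse 224 the lowest adjacent one (18.3%), so the groups overlapped. AT2 cells had the most one-sided make-up, with 87.9% ± 0.907 alpha, 8.59% ± 0.0881 beta and 3.50% ± 0.827 gamma in knockout mice, and 85.0% ± 4.68, 9.67% ± 2.85 and 5.37% ± 1.83 in wild-type mice. The beta and gamma levels of adjacent lung stood beside more RNA of ciliated markers and of Scgb1a1, the secretory protein of club cells (25994 ± 10288 CPM, against 1310 ± 554 in tumour and 457 ± 55.9 in knockout AT2 cells). The club markers were all lower in tumour, but by unlike amounts, with log2 fold changes from -6.69 (Scgb3a2) to -0.97 (Cbr2). Cyp2f2 overlapped between tumour and adjacent lung (adjusted p = 0.290, edgeR). Cbr2 was at 1496 ± 425 CPM in adjacent lung, below its AT2 level. The part of those cells was not tested.

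**Figure D3:**
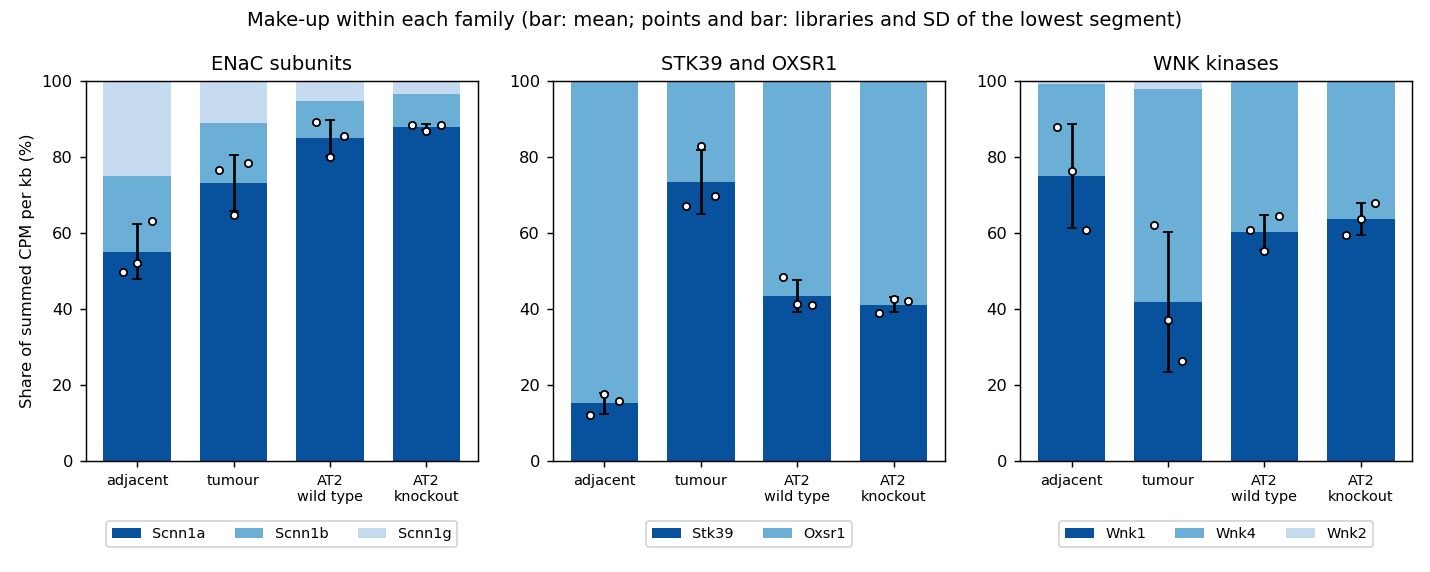
Share of each gene in the summed CPM per kilobase of its family (vertical axis, percent) in the 4 groups; bars are means over 3 libraries, and white points with an SD bar give the libraries for the lowest segment. Stk39 is 15.2% of its pair in adjacent lung and 73.4% in tumour, and the Scnn1a segment is taller in tumour and in AT2 cells than in adjacent lung.

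Cftr (ENSMUSG00000041301, chromosome 6, 18170687 to 18322768, plus strand) encodes a chloride and bicarbonate channel regulated through cyclic AMP signalling. It had 28, 20 and 0 counts in the tumours of mice 102, 217 and 224, and 678, 286 and 456 counts in adjacent lung. These were 0.398, 0.318 and 0 CPM against 8.49, 3.83 and 6.07 CPM. No tumour library came near the lowest adjacent one. The log2 fold change was -4.67 ± 1.21, and -5.23 without mouse 217. In mouse 224 the 0 counts allow a level of up to 0.0437 CPM (3 counts, counting error only), at least 139-fold lower than in its adjacent lung. The antisense gene Gm15592 and the pseudogene Gm15595, which overlap Cftr, had 0 counts in all lung libraries.

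Cftr was far from scarce in sorted AT2 cells, at 84.2, 127 and 117 CPM in knockout mice 175, 179 and 191 and at 76.4, 80.0 and 113 CPM in wild-type mice 176, 177 and 190. The mean of the knockout AT2 libraries was 17.8 times that of adjacent lung and 457 times that of tumour, across tables that were normalised separately and with no test. The sorted cells also came from younger mice than the bulk lung. Of the 9 AT2 markers 2 were higher in tumour than in adjacent lung and none lower, and their part in the Cftr values was not tested. Ionocytes, rare airway cells rich in Cftr, left no Foxi1 (their defining transcription factor) in any of the 12 libraries, and Ascl3, another ionocyte regulator, stayed at or under 0.529 CPM in each. Of the 7 ionocyte markers 6 could be tested in lung, with 1 higher (Atp6v1c2) and 1 lower (Asgr1) in tumour. The list summed to 276 to 356 CPM in tumour, 71.3 to 335 CPM in adjacent lung and 311 to 400 CPM in sorted AT2 cells. In lung nearly all of the sum was Atp6v1c2 (mean 239 CPM in tumour, 37.0 in adjacent lung) and Atp6v0d2 (62.2 and 201). It therefore says little of ionocytes.

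Tumour lay close to AT2 cells in some genes of the pathway and far from them in others, again as a description across tables. Age and sorting differed along with the tissue here, and their parts cannot be told apart. Slc12a2 in tumour was 1.01 times its mean in knockout AT2 cells, and Scnn1a 0.825 times. Stk39 in tumour was 3.12 times its AT2 level, and in adjacent lung 0.252 times. Scnn1g in adjacent lung was 13.5 times its AT2 level, against 2.59 times in tumour.

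The order of the levels per kilobase shows which genes dominate in each group. In tumour Slc12a2 came first (70.2 ± 11.3 CPM per kb), overlapping Scnn1a (53.3 ± 29.7), then Stk39 (24.5 ± 1.62), which stood apart from its neighbours on both sides. Wnk4, Scnn1b, Wnk1, Oxsr1 and Scnn1g followed between 13.4 and 6.67 CPM per kb, each overlapping the next, and Wnk2 (0.475) and Cftr (0.0307) were lowest. In adjacent lung the ENaC subunits led: Scnn1a at 77.2 ± 19.7, then Scnn1g at 34.8 ± 11.2 and Scnn1b at 28.0 ± 7.45, which overlapped each other. Slc12a2 (14.1 ± 4.54), Oxsr1 (11.6 ± 4.39) and Wnk1 (10.4 ± 4.33) came next and overlapped among themselves, apart from Scnn1b above and Wnk4 (3.14 ± 1.79) below. Stk39, at rank 3 in tumour, was at rank 8 here, at 1.98 ± 0.308, overlapping Wnk4 and above Cftr (0.789) and Wnk2 (0.128).

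In AT2 cells Slc12a2 (69.5 ± 3.96 in knockout and 70.3 ± 5.63 CPM per kb in wild type) and Scnn1a (64.5 ± 4.601 and 57.7 ± 11.7) were again first and overlapped. Cftr was at 14.1 ± 2.85 in knockout and 11.6 ± 2.61 in wild type, among Wnk1 and Oxsr1. Stk39 (7.86 ± 0.399 and 9.06 ± 0.765), Wnk4 (7.73 ± 1.62 and 7.78 ± 0.646) and Scnn1b (6.31 ± 0.478 and 6.46 ± 1.67) followed. Scnn1g was at 2.57 ± 0.635 and 3.57 ± 0.982, and Wnk2, at 0.0818 and 0.0709, was barely detected.

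**Figure D4:**
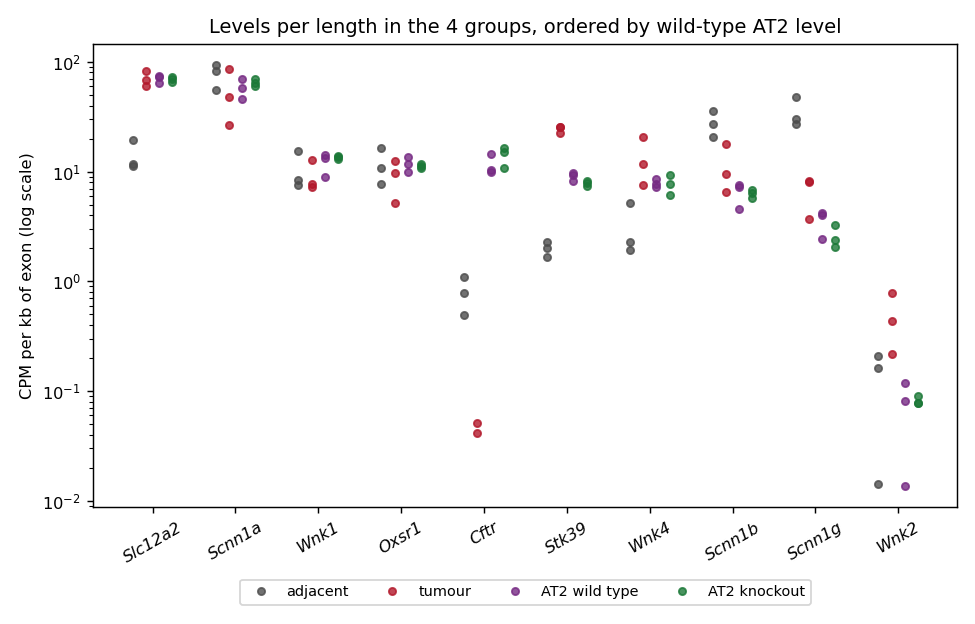
Level per kilobase of exon (vertical axis, log scale) of the 10 genes in every library, ordered by their wild-type AT2 level; each point is 1 library, and the tumour library with 0 counts of Cftr is not drawn. Slc12a2 of tumour lies beside the AT2 groups, Stk39 of tumour lies above all other groups, and Cftr of tumour lies below all of them.

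The other genes of the pathway were read from a list of 55 partners in 5 groups, of which 53 passed the filter in lung. By edgeR's quasi-likelihood test over all genes, 4 were higher and 3 lower in tumour at an adjusted p under 0.05, and 46 did not pass. Of all 19995 genes, 2.86% were called higher and 7.18% lower. The median log2 fold change of the partners was 0.02, beside 0.04 over all genes. With the mouse as a replicate block, which the shared animals allow, 7 partners were higher and 5 lower, where 5.57% and 9.34% of all genes were.

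None of the 13 regulators of the WNK kinases and of STK39 passed, and their median was -0.25. Cab39, the MO25 scaffold that activates STK39 and OXSR1, was at 156 ± 46.1 CPM in tumour and 156 ± 49.6 in adjacent lung, and the log2 difference was 0.00 ± 0.36. The ubiquitin ligase that degrades WNK kinases is built from Cul3 (87.5 ± 32.2 against 83.3 ± 36.3 CPM, log2 0.07 ± 0.42) and the adaptor Klhl3 (8.76 ± 2.14 against 5.05 ± 0.743 CPM, 0.79 ± 0.39, adjusted p = 0.272 by edgeR). Among the 7 other cation-chloride cotransporters tested, the relatives of Slc12a2, none passed either, and their median was -0.42.

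Of 11 chloride and bicarbonate transport genes, 2 were higher and 1 lower. Slc26a9, an apical chloride channel that works together with CFTR, was at 234, 249 and 290 CPM in tumour against 44.2, 34.4 and 59.0 CPM in adjacent lung. The groups were far apart, and it rose by 2.49 ± 0.33 on the log2 scale (adjusted p = 0.00871, edgeR). Its level in AT2 cells was higher still, 571 ± 41.8 CPM in knockout and 505 ± 77.6 in wild type. The sodium-bicarbonate cotransporter Slc4a4 rose by 3.32 ± 0.83 (adjusted p = 0.0447, edgeR), with 269 CPM in the tumour of mouse 102 but 36.7 and 63.0 in the others, against 5.63 to 18.8 in adjacent lung. The chloride-iodide exchanger Slc26a4 (pendrin) fell by 3.34 on the log2 scale (SE 0.63, adjusted p = 0.0202, edgeR), from 16.1, 71.9 and 92.3 CPM in adjacent lung to 5.61, 5.14 and 7.11 in tumour. The calcium-activated chloride channel Ano1 (54.2 ± 36.7 against 47.1 ± 19.4 CPM, log2 0.20 ± 0.65) and the CFTR scaffold Slc9a3r1 (132 ± 33.6 against 106 ± 32.4 CPM, 0.31 ± 0.35) overlapped between the tissues. Atp12a, a proton pump, had 0 counts in all lung libraries.

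Of 9 genes for ENaC proteases, their inhibitors and ENaC turnover, 2 were higher and 1 lower, with a median of 1.39. Sgk1, the kinase that keeps ENaC at the membrane, was at 63.5, 37.2 and 49.7 CPM in tumour against 239, 264 and 375 CPM in adjacent lung. Every tumour library lay far below every adjacent one, and Sgk1 fell by 2.55 on the log2 scale (SE 0.36, adjusted p = 0.00992, edgeR). St14 (matriptase, a membrane protease) rose by 1.66 ± 0.30 (adjusted p = 0.0171, edgeR), from 82.9 ± 16.5 to 262 ± 8.42 CPM. Spint2, which inhibits such proteases, rose by 1.59 ± 0.40 (adjusted p = 0.0472, edgeR). Prss8 (prostasin, an ENaC-activating protease) was at 169, 254 and 107 CPM in tumour and 61.8, 74.3 and 66.3 in adjacent lung, with a log2 fold change of 1.39 ± 0.37 that missed the threshold (adjusted p = 0.0553, edgeR) and passed with the mouse as a block (1.31, adjusted p = 0.0374). Spint1, a second inhibitor, also passed only with the block (1.48, adjusted p = 0.0217). Nedd4l, the ligase that removes ENaC from the membrane, had 103 ± 29.0 CPM in tumour, 75.6 ± 25.3 in adjacent lung and a log2 fold change of 0.45 ± 0.36, which missed the threshold.

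Of 13 genes for the sodium pump, potassium channels and aquaporins, 1 was lower and none higher. Aqp1, the water channel of endothelium, fell by 2.27 on the log2 scale (SE 0.42, adjusted p = 0.0183, edgeR), from 785 ± 359 to 163 ± 24.3 CPM, and was at 1.36 CPM in knockout AT2 cells. Of the endothelial markers 5 of 6 were lower in tumour too (347 to 412 CPM summed in tumour and 1805 to 3317 in adjacent lung), as were 2 of 4 smooth muscle markers (62.9 to 221 CPM summed in tumour and 195 to 817 in adjacent lung); their part in this value was not tested. Atp1b1, a beta subunit of the pump, was higher in every tumour library, at 1391 ± 987 against 441 ± 170 CPM (1.66 ± 0.58, adjusted p = 0.123, edgeR). With the block Atp1b1 passed (1.49, adjusted p = 0.0267), as did the lower Fxyd1 (-3.07, adjusted p = 0.0293) and Kcne2 (-1.66, adjusted p = 0.0385). Aqp5, the apical water channel, was at 309 ± 231 against 140 ± 45.7 CPM (1.14 ± 0.65, adjusted p = 0.353) and overlapped.

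The calls of Sgk1 and Slc26a9 held whichever library was left out. Aqp1 lost its call without the tumours of mice 102 (adjusted p = 0.0571) and 224 (0.0663) or the adjacent lung of 224 (0.0529). Slc26a4 lost it without the tumours of mice 102 (0.0739) and 224 (0.0610), the adjacent lung of 217 (0.0535) and 224 (0.0637), or both libraries of 217 (0.101). St14 lost it without any library but the tumour of mouse 217 (0.0547 to 0.0597), and without both libraries of 217 (0.0695). Slc4a4 behaved likewise (0.0678 to 0.140), and its log2 fold change was 1.99 without the tumour of mouse 102. Spint2 lost it without any 1 library (0.0778 to 0.163). With the mouse as a block, which keeps the pairing, all 7 genes passed (adjusted p 0.0109 to 0.0304, edgeR). The log2 fold changes of these 7 genes kept their sign in every setting.

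**Figure D5:**
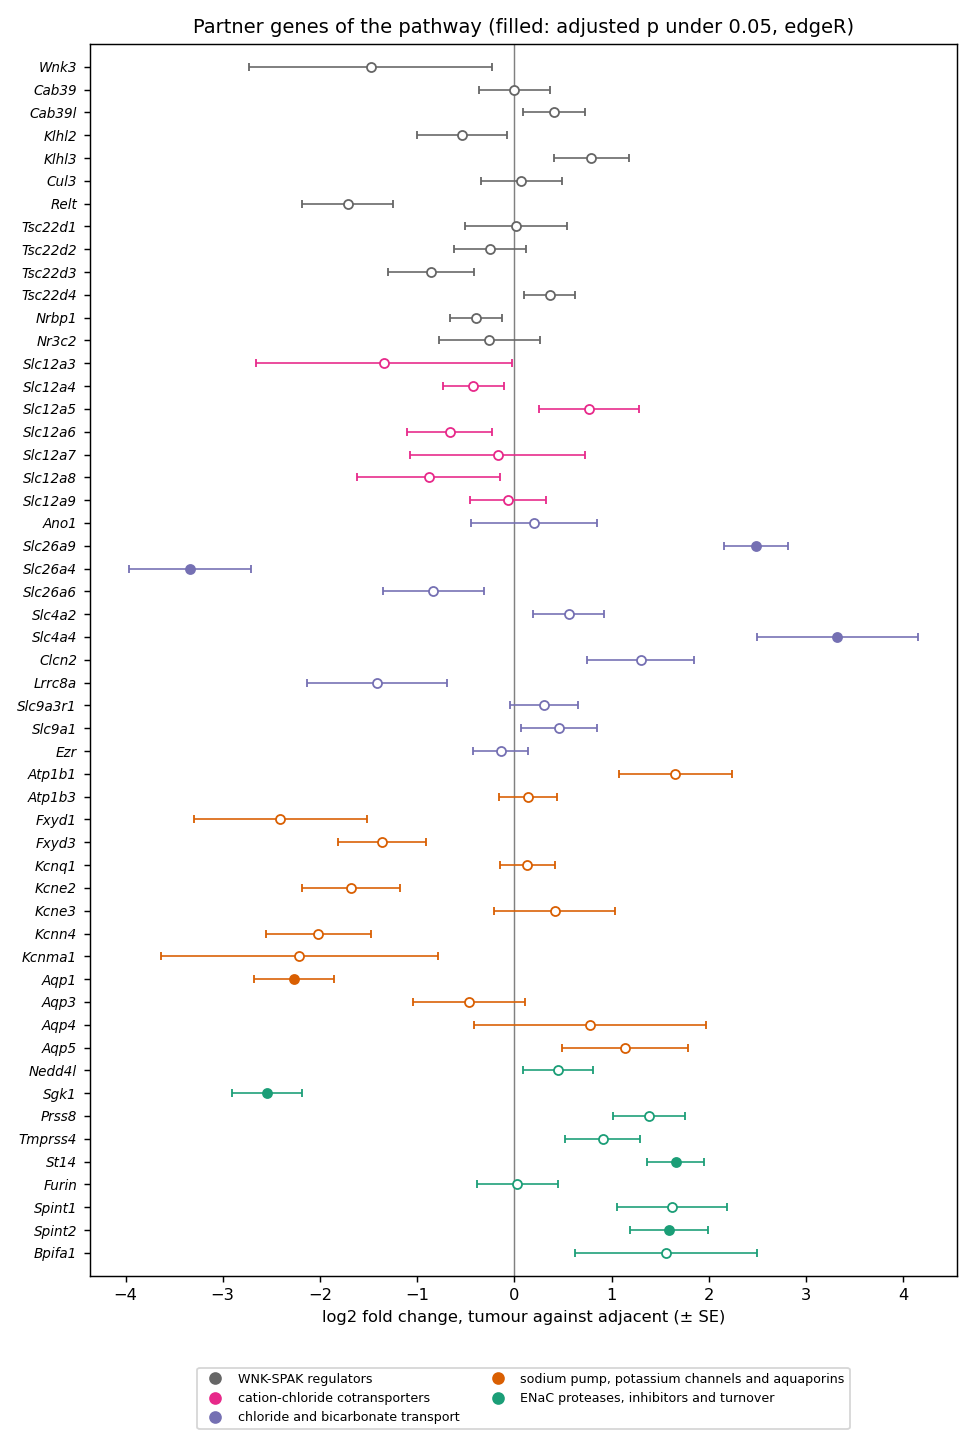
Log2 fold change of tumour against adjacent lung with its SE (horizontal axis) for the 53 partner genes tested, coloured by group; filled points have an adjusted p under 0.05 by edgeR. Of the 7 filled points 4 lie above 0 and 3 below, and no regulator of the WNK kinases and no cation-chloride cotransporter is filled.

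By the shape of its values over the 6 lung libraries, Stk39 was most like Il18rap, an interleukin 18 receptor subunit (root mean square difference of centred log2 CPM 0.251), Plek2 (0.267), Itih2 (0.277), Aass, an enzyme of lysine breakdown (0.278), and the arginase Arg2 (0.279), among 11849 genes compared. Il18rap was at 121 ± 30.03 CPM in tumour and 11.3 ± 2.61 in adjacent lung, and Aass at 52.5 ± 5.05 and 3.30 ± 0.605. In AT2 cells these genes parted: Aass was at 45.6 CPM in knockout mice, near its tumour level, and Itih2 at 0.430. Those most like Cftr were the adenylyl cyclase Adcy8 (0.564), Cyp4b1 (0.607), the peptidase Mme (0.646), Slc10a6 (0.684) and Pi15 (0.741), none as close as those of Stk39. Mme shared the high AT2 level of Cftr, at 1113 CPM in knockout mice against 126 ± 44.3 in adjacent lung and 6.51 ± 4.20 in tumour. Slc10a6 did so as well (54.1 against 29.3 ± 15.2 and 1.63 ± 1.44 CPM), while Adcy8 and Pi15 were at 0 in knockout AT2 cells. Likeness over 6 libraries of 2 tissues says no more than that the genes differ between the tissues in the same measure.

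Whether AT2 cells of mice aged 6 months differed in these genes with the T-cell deletion of Med23 was asked in the sorted cells. The choice of genes did not rest on that contrast. None of the 10 genes passed edgeR's quasi-likelihood test, and none had an unadjusted p under 0.05. The adjusted p ran from 0.984 to 0.998, and the groups overlapped for all 10, where 8.3% of all 14053 genes did not overlap (4.19% higher and 4.11% lower in knockout). Across all genes 0 passed by edgeR (0.0%), 347 had an unadjusted p under 0.05, and 1 passed by DESeq2.

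The values of single libraries show how close the groups were. Stk39 was at 36.8, 39.4 and 40.7 CPM in knockout mice 175, 179 and 191 and at 46.3, 47.8 and 40.6 CPM in wild-type mice 176, 177 and 190, a log2 fold change of -0.20 ± 0.14 with a 95% interval from -0.51 to 0.10. Only the wild-type library of mouse 190 kept the groups from parting. Slc12a2 was at 765, 800 and 714 CPM in knockout and 699, 818 and 787 CPM in wild type (-0.02 ± 0.15, interval -0.34 to 0.31). Cftr was at 109 ± 22.1 against 89.9 ± 20.2 CPM (0.28 ± 0.20, interval -0.15 to 0.71). The difference was largest for Scnn1g, at 6.19, 9.83 and 7.06 CPM in knockout and 7.29, 12.6 and 12.1 CPM in wild type (-0.47 ± 0.26, interval -1.05 to 0.10), and it rests on 106 to 220 counts per library.

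Scnn1a was at 267 ± 19.0 against 239 ± 48.4 CPM (0.16, interval -0.21 to 0.53), Scnn1b at 16.6 ± 1.26 against 17.0 ± 4.41 (-0.03, interval -0.49 to 0.42) and Wnk4 at 32.1 ± 6.74 against 32.3 ± 2.68 (-0.01, interval -0.39 to 0.38). Oxsr1 gave -0.07 (interval -0.40 to 0.25), and Wnk2, with 2 to 17 counts per library, gave 0.21 with an interval from -1.23 to 1.64. Wnk1 gave 0.16 (interval -0.23 to 0.55), and this value rests on the wild-type library of mouse 177, which had 204 CPM where the other 5 libraries had 299 to 320: without it the value was -0.02. Without that library Stk39 gave -0.16, Scnn1g -0.34, Cftr 0.20, Scnn1a 0.0174, Scnn1b 0.0548, Slc12a2 0.0288, Wnk4 -0.0619, Oxsr1 0.0432 and Wnk2 -0.28, so that Oxsr1, Wnk1, Wnk2, Slc12a2 and Scnn1b changed sign. Without wild-type mouse 176 Stk39 gave -0.18, Scnn1g -0.68, Cftr 0.18, Scnn1a 0.16, Scnn1b -0.23, Slc12a2 -0.0801, Wnk4 0.0577, Oxsr1 -0.18, Wnk1 0.24 and Wnk2 0.78, and Wnk4 alone changed sign. None of the 10 passed the test in either setting. Among the 10 intervals, a bound lay beyond 1 on the log2 scale for Wnk2 and Scnn1g alone.

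Of the 55 partners 44 passed the filter in AT2 cells, and 0 passed the test by edgeR, 0 of them with an unadjusted p under 0.05. Their median log2 fold change was 0.04, beside -0.01 over all genes tested. Among those abundant in AT2 cells, Slc26a9 was at 571 ± 41.8 against 505 ± 77.6 CPM, Atp1b1 at 1023 ± 11.5 against 1032 ± 41.5 and Nedd4l at 223 ± 9.83 against 215 ± 10.6. Sgk1 was at 21.6 ± 4.34 against 17.2 ± 2.83 CPM, well below either lung tissue.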

How the data were processed

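Poly-A RNA of 12 libraries in 4 groups of 3 was sequenced after preparation with a NEBNext Ultra kit, per the labels' protocols; this kit does not mark strand. The authors deposited whole-number counts per gene, not normalised, in 1 table for lung and 1 for AT2 cells. The submitters' processing notes list HISAT2 and StringTie 1.3.3b, Trimmomatic 0.39 with FastQC, and DESeq2 1.28.1, with the build GRCm38 (mm10). How reads were counted, with which strand setting and gene annotation, is not given in the sources used here. Rows without a GENCODE M21 name (1035 in lung, 0.0388% of counts, and 37 in AT2, 0.00383%) were kept, since they carry gene identifiers.

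Each table was fitted on its own over all genes in R 4.3.3 with edgeR 4.0.16: low-count filter, TMM scaling, quasi-likelihood test with group as the only term, Benjamini-Hochberg adjustment and a threshold of 0.05. The fit was tested on simulated data. Levels are CPM after TMM, as mean ± SD (n = 3), and a level per kilobase divides by the union of annotated exons. A log2 fold change has tumour or knockout on top and is given ± its SE. Levels set across the tables were not tested. Floors from counts cover counting error only. The 95% intervals come from the SE of the edgeR fit, which includes the spread between animals. Intervals and p-values rest on 3 animals a group.

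The 10 genes and the partner and marker lists were chosen with earlier results of these data known. Partners were named where they passed with a mean of at least 5 CPM, up to 4 a list and direction, and 11 were named whatever their values; partners that pass only with the block were named after their values were seen. For likeness to Stk39 and Cftr, log2 CPM (prior count 2) was centred per gene and the 5 closest genes with a mean of at least 5 CPM were named. Tumour and adjacent lung of a mouse deviated together from their group means (Pearson r across genes 0.273, 0.459 and 0.366 for mice 102, 217 and 224), so the animals pair the samples, and a fit with the mouse as a block was run beside the main one. No 2 libraries of a group were near-identical (the chi-square of their counts, divided by its degrees of freedom, was at least 7.23 over genes with 20 counts or more). Alternatives were DESeq2 size factors, library totals alone, no filter, the DESeq2 1.42.0 Wald test, each library left out, and both libraries of mouse 217 left out; member values in lung were also scaled to epithelial markers. Promoter windows (250 bases before the start) are RefSeq's, and 8 of the 10 genes matched that table. Some partner genes are not reported here and are left out of the list counts.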

Additional observations from a re-analysis of the deposited data

How the results depend on the processing

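Over all genes, tumour against adjacent gave 2007 calls, 3729 by the DESeq2 Wald test, 847 without both libraries of mouse 217, and 598 (without the adjacent lung of mouse 224) to 1854 when 1 library was left out. With the mouse as a replicate block there were 2980, of which 1719 were among the 2007. Calls higher in tumour were 28.5% of all (571 of 2007), 17.6% with library totals alone (393 of 2233), which moves the median log2 fold change by -0.22, and 17.6% without mouse 217. Scaling to epithelial markers moves that median by -1.13, so the lung values of the 10 genes under that scaling are relative to it, and their signs held.

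Partners called higher numbered 4, against 2 with library totals, 2 without the filter, 7 by DESeq2, 7 with the block, 1 without mouse 217 and 1 to 4 with a library left out. Those called lower numbered 3, against 6 with library totals, 8 by DESeq2, 5 with the block and 1 to 4 with a library left out. Over all 19995 genes, calls higher were 571 in the main fit, 393 with library totals, 1145 by DESeq2 and 1113 with the block. Calls lower were 1436, 1840, 2584 and 1867 in the same order. Higher and lower calls were 404 and 1153 of 30825 genes without the filter, and 149 and 698 of 20518 without mouse 217. The partner counts moved beside these totals, and no more is read from them. Without the filter or with library totals Slc4a4 (adjusted p = 0.0546 and 0.0531) and Spint2 (0.0779 and 0.0561) were not called, nor was Spint2 with DESeq2 size factors (0.0529).

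Between knockout and wild-type AT2 cells 0 genes passed, against 17 without the filter, 1 by DESeq2 and 0 to 1 with a library left out (1 without wild-type mouse 176); of the 10 genes and their partners, 0 passed in every setting. With library totals the log2 values of Wnk4, Slc12a2 and Scnn1b turned positive, at 0.0454, 0.0445 and 0.0303. With a library left out Oxsr1 ran from -0.18 to 0.0432, Wnk1 from -0.0195 to 0.28, Wnk2 from -0.28 to 0.78, Wnk4 from -0.17 to 0.13, Slc12a2 from -0.0801 to 0.0288 and Scnn1b from -0.23 to 0.10. In lung, Wnk1 turned to 0.24 without the adjacent lung of mouse 102, and the other 9 genes kept their signs in all settings. The cause of these changes was not tested. No block was fitted in AT2 cells, whose mice are not paired. At 15943084 counts or more per AT2 library, Wnk2 rests on few counts, and Cftr in tumour on 48 counts in all.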
